A study of Homo sapiens with 6 samples.

Results

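Antisense RNA genes are named after the gene they lie against: the symbol is that of a neighbour, here called the partner, followed by -AS1. Such a gene was taken when its symbol without -AS1 was also named on the array. This gave 287 antisense genes among 14884 genes tested, out of 431 symbols that end in -AS1, and each gene was read from its probe set with the highest mean. All 287 were tested, since no filter on low values was applied.

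The cells were U-2 OS, a human osteosarcoma line, infected with a retrovirus and kept for 3 days in puromycin at 5 µg/ml. RNA was taken 4 days after infection. In 3 samples the vector carried wt-progerin, the truncated and permanently farnesylated lamin A of Hutchinson-Gilford progeria. In the other 3 it carried S22A-progerin, in which a serine phosphorylated when the lamina is taken apart is replaced by alanine. Both groups therefore express progerin from a viral vector in selected cells, and a control without progerin was not analysed here. The labels call the replicates independent but do not say what was repeated, so p-values measure the spread between these samples. A difference is the mean of 3 S22A-progerin arrays less that of 3 wt-progerin arrays in log2 units, 1 unit being 2-fold, and "passed" means an adjusted p under 0.05 in limma over all genes tested.

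An antisense RNA is transcribed from the strand opposite to another gene. Some arise from a promoter shared with the partner and run away from it, and others start within or beyond the partner and run across it. Known examples act on the partner's promoter, on chromatin, on splicing or on the stability of its messenger RNA, while many have no known role, and many nuclear ones are short-lived because the RNA exosome degrades them.

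The 6 arrays had medians of 6.04 to 6.09 over all probe sets, and the medians over the 287 antisense genes were 5.92 to 6.01. The first principal component, with 69.1% of the variance, separated the groups, and S22A-progerin replicate 3 stood apart on the second, with 11.1%. Among osteosarcoma and mesenchymal markers, 3 of 9 were measured. VIM, which encodes vimentin, was at 10.8 to 10.9, RUNX2, the osteoblast regulator, fell from a mean of 8.77 to 8.03, and TWIST1 was at 4.81 to 5.11. Of 6 leukocyte markers 3 were measured, with summed log2 values of 16.7 to 17.4 in wt-progerin and 17.1 to 17.95 in S22A-progerin, and 0 of the 3 passed. Of 4 endothelial markers 3 were measured, at 16.4 to 17.1 and 16.7 to 17.3, and 0 passed. Of 5 epithelial markers 4 were measured. KRT18, a keratin, rose by 0.51 and the other 3 did not pass, with a median difference of -0.000342 over the 4. The sums over the 4 were 32.2 to 32.9 in wt-progerin and 32.7 to 32.9 in S22A-progerin. The part of these markers in the results was not tested.

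Of the 287 antisense genes, 24 were higher and 27 lower in S22A-progerin, and 236 did not pass. The 51 that passed make up 17.8%, against 25.4% of all genes tested, and the shares by direction among all genes were 10.8% higher and 14.6% lower. With each array centred on its median the counts were 18 higher and 36 lower, and without wt-progerin replicate 1 they were 17 and 17. The median difference over the 287 was 0.00254, beside -0.00367 over all genes, and it was -0.0314 with each array centred on its median. The typical size of a difference, taken as the median without regard to sign, was 0.125 for antisense genes and 0.134 for all genes. The groups did not overlap for 92 antisense genes (32.1%), against 42.1% of all genes, and the 51 that passed were all among the 92. Because each array averages many cells, a transcript present in fewer cells cannot be told apart from less of it per cell.

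Antisense genes lay low on the array. Their median level was 5.95, beside 7.10 over all genes and 7.52 over the 287 partners, although probe sets of different genes are not on one scale. The lowest mean was that of MACC1-AS1 at 2.52 and the highest that of ZNF674-AS1 at 9.63, and among partners the range ran from TEX26 at 3.56 to NIFK at 11.7. When all tested genes were ranked by level and divided into 3 equal bins, 178 antisense genes fell in the lowest, 94 in the middle and 15 in the highest. In the lowest bin 17 of 178 passed (9.55%, against 10.2% of all genes there). In the middle bin 27 of 94 passed (28.7%, against 26.1%), and in the highest 7 of 15 (46.7%, against 39.8%). Within each bin the share was thus near that of all genes, and the lower share over the whole list goes with its larger number of genes at low levels. Since detection calls were not used here, a transcript at a low value may be absent, and differences between low values are compressed.

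**Figure D1:**
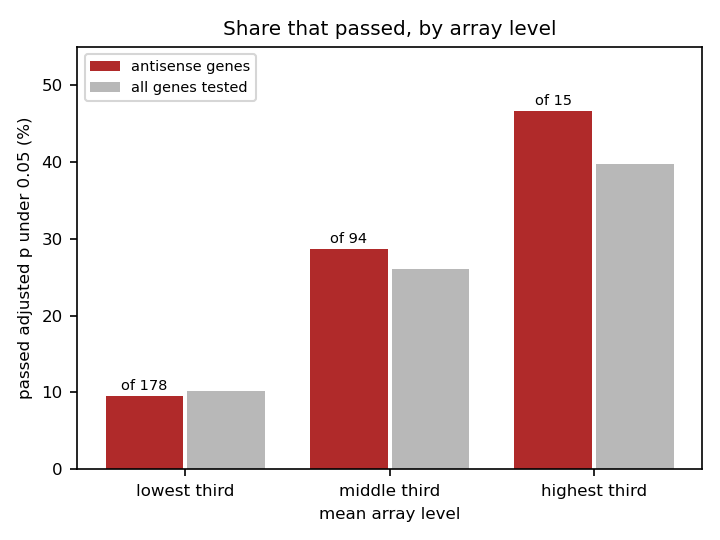
Share of genes with an adjusted p under 0.05 in limma (y axis, percent) in the 3 bins of mean array level (x axis), for the 287 antisense genes (red) and all 14884 genes tested (grey), with the number of antisense genes above each red bar. The antisense shares of 9.55%, 28.7% and 46.7% rise with level as do those of all genes.

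The differences that passed ranged from -0.82 (JAKMIP2-AS1) to -0.21 (RASSF8-AS1) and from 0.22 (ARHGAP5-AS1) to 1.22 (SH3PXD2A-AS1), and SH3PXD2A-AS1 alone reached 2-fold. Their median size was 0.325, beside 0.384 over all genes that passed. Of the 51, 22 kept direction and call under each of 15 other settings that tested them, and 29 lost the call under at least 1. Those 22 include 10 of the 12 largest rises and 9 of the 12 largest falls. The exceptions were HECTD2-AS1 and ALOX12-AS1 among the rises and JAKMIP2-AS1, CCNT2-AS1 and ASB16-AS1 among the falls. HECTD2-AS1 had an adjusted p of 0.0527 in limma without wt-progerin replicate 3. JAKMIP2-AS1 had 0.0610 without wt-progerin replicate 1 and 0.0722 without replicate 3, and CCNT2-AS1 had 0.0515 and 0.0535 without wt-progerin replicates 1 and 2. ALOX12-AS1 lost the call without any 1 of 4 arrays, with adjusted p of 0.0511 to 0.0849, and ASB16-AS1 without any 1 of 5, with 0.0688 to 0.129. Among these 5, the difference of HECTD2-AS1 was 0.48 without that array, those of JAKMIP2-AS1 were -0.82 and -0.75 and those of CCNT2-AS1 were -0.39 and -0.38, all in the same direction as over all arrays. For ALOX12-AS1 they ranged from 0.31 to 0.41, and for ASB16-AS1 from -0.36 to -0.24.

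**Figure D2:**
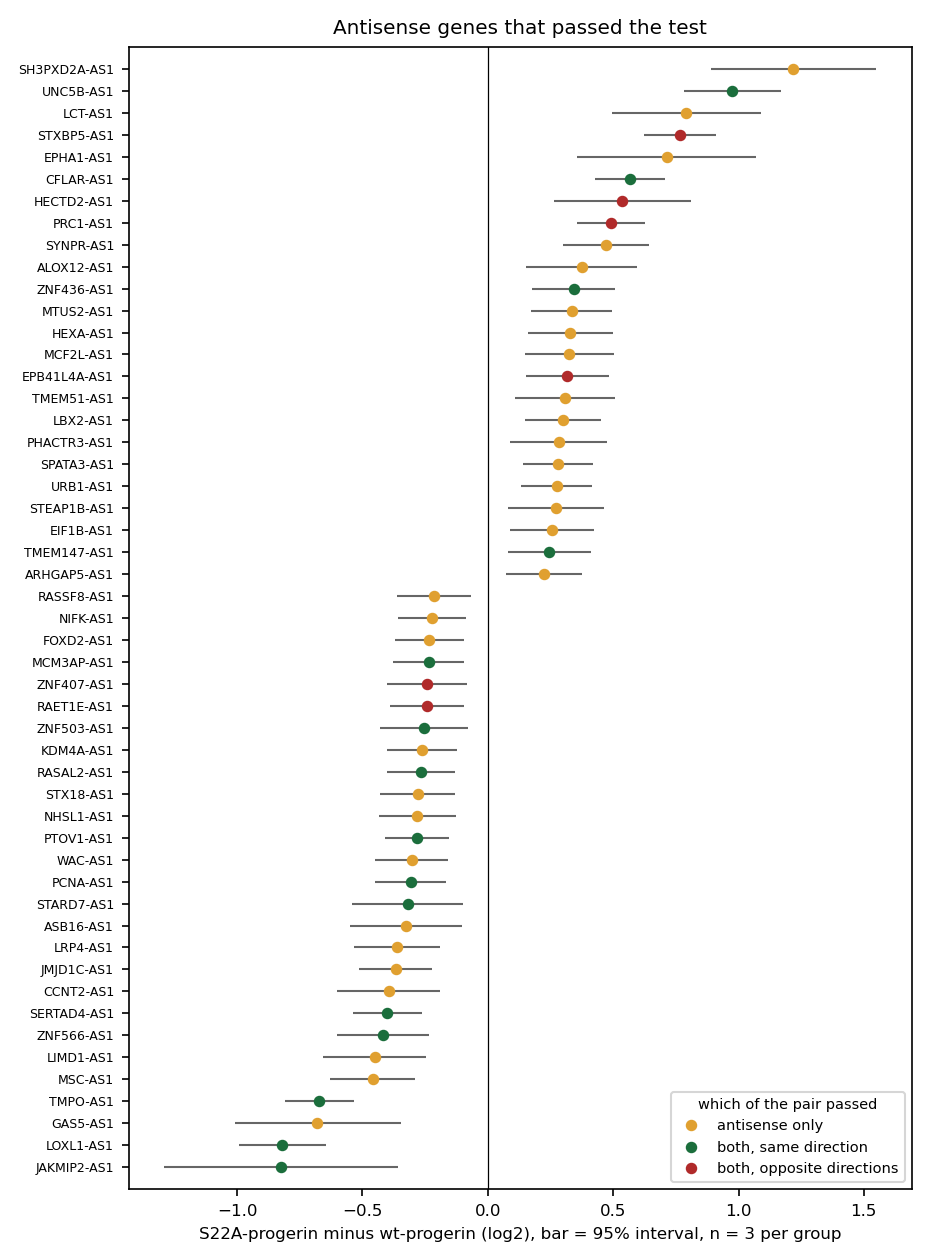
Difference in log2 level, S22A-progerin minus wt-progerin (x axis), for each of the 51 antisense genes that passed (y axis), with 95% intervals from limma and n = 3 arrays per group. Colours give what the partner did: green where both passed in the same direction, red where both passed in opposite directions, orange where the partner did not pass. The 24 rises reach 1.22 and the 27 falls -0.82.

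Of the 287 partners, 39 were higher and 51 lower (31.4% passed), or 31 and 57 with each array centred on its median. Set pair by pair, 167 pairs had no gene that passed, 69 had the partner alone and 30 the antisense gene alone. In 21 pairs both passed, in the same direction in 15 (5.23% of 287) and in opposite directions in 6 (2.09%). For comparison, 1339 other pairs of tested genes that lie on opposite strands, overlapping or within 1000 bases of each other, had 6.95% in the same and 2.91% in opposite directions. The shares of antisense pairs were no larger than those of these other neighbours. The 2 sets were not matched for level, and antisense genes lie low on the array. In 90 of the 287 antisense pairs a strand was also missing for at least 1 gene. The same-direction count was 8, 8 and 7 without wt-progerin replicates 1, 2 and 3. The opposite-direction count was 3 and 2 without wt-progerin replicates 2 and 3, and 2 and 3 without S22A-progerin replicates 1 and 2. Across the 287 pairs the 2 differences had a Pearson correlation of 0.32 and a Spearman correlation of 0.31, against 0.19 and 0.15 over the 1339 other pairs. These are descriptions, since all pairs share the same 6 arrays and neighbouring genes are not independent.

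**Figure D3:**
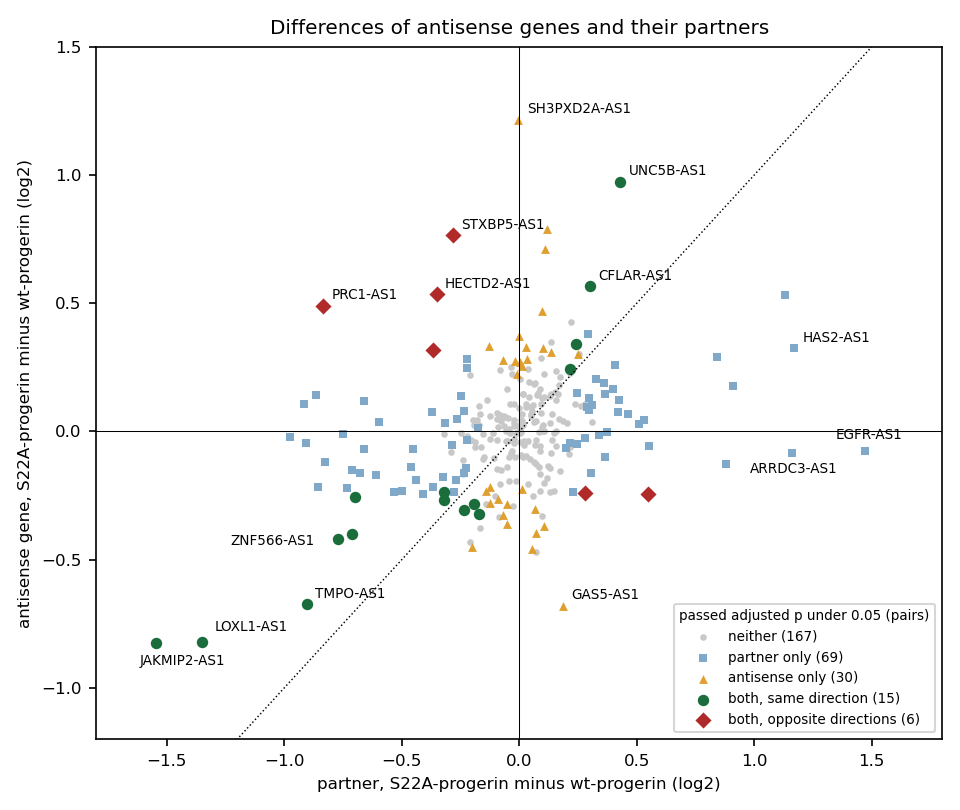
Difference of each antisense gene (y axis) against that of its partner (x axis), S22A-progerin minus wt-progerin in log2 units, for 287 pairs. Markers give which of the pair passed, and the dotted line marks equal differences. Green circles (15 pairs) lie in the lower left and upper right, and red diamonds (6 pairs) in the other corners, with PRC1-AS1 at 0.49 against -0.84.

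Whether a pair changed by different amounts was tested with limma on the antisense value minus the partner value of each array, adjusted over 1626 pairs fitted together. The difference passed in 73 of the 287 antisense pairs (25.4%), beside 32.2% of all pairs fitted and 33.7% of the 1339 other neighbours. In 40 of the 73 the antisense gene lay above its partner and in 33 below. All 6 opposite-direction pairs passed this test, as did 6 of 15 same-direction pairs, 15 of 30 with the antisense gene alone, 39 of 69 with the partner alone and 7 of 167 with neither. In 15 of 30 pairs with only the antisense gene called, then, a different response of the partner was not shown.

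Of the 287 pairs, 90 had no strand for at least 1 gene in the RefSeq sequence windows used here, and were not placed. For the other 197 the strands of both genes were held (assembly GRCh38.p14). In 54 the 5′ ends lay within 1 kb of each other, in 94 the antisense gene started inside its partner, in 42 the genes overlapped with the antisense start outside, and 7 lay apart. In the class with close 5′ ends 17 of 54 antisense genes passed (31.5%), in the class starting inside the partner 10 of 94 (10.6%) and in the last 6 of 42 (14.3%). Of partners, 18, 28 and 12 passed in these 3 classes, and the median antisense level was 6.22, 5.77 and 6.23. Over all genes tested 25.4% passed. Among the 7 pairs that lay apart, 2 antisense genes passed, both in the 5 pairs with the 5′ ends nearest. The part of array level in these shares was not tested. Both passed in the same direction in 6, 5 and 1 pairs and in opposite directions in 2, 2 and 2. The Pearson correlation of the 2 differences was 0.43 over 54 pairs, 0.31 over 94 and 0.25 over 42, as a description over the same 6 arrays. No test was made of these differences between classes. The position and strand of the probes were not analysed here.

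In 20 pairs whose 5′ ends face apart fewer than 250 bases separate the starts, so that 1 short stretch precedes both genes. Stretches were taken for 8 of these pairs, in each of which the antisense gene passed. The 8 need not be all of the 20 in which it passed, so no share is drawn from them. Shown here are 5 of those 8, from the 3 pairs in which both genes passed and 2 in which the antisense gene alone did, since this is the DNA that both starts share. Each is RefSeq sequence of GRCh38.p14, written 5′ to 3′ on the strand of the antisense gene, with capitals on any CCAAT or GGGCGG on either strand.
RASAL2-AS1: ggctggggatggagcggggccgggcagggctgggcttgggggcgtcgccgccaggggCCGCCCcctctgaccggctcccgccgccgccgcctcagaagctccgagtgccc
ZNF566-AS1: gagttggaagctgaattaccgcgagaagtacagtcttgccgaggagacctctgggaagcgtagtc
ZNF407-AS1: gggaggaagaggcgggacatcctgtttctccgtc
CCNT2-AS1: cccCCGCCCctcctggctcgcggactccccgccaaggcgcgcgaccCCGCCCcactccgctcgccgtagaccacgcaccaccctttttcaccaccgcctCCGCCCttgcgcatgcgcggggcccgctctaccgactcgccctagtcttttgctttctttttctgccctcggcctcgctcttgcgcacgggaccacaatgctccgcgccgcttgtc
URB1-AS1: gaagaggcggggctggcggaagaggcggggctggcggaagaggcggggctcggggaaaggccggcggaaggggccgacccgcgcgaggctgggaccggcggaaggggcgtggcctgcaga
They lie at chr1:178093994-178094103 (minus strand), chr19:36489562-36489626 (plus), chr18:74597836-74597869 (minus), chr2:134918607-134918821 (minus) and chr21:32393013-32393132 (plus), and are 110, 65, 34, 215 and 120 bases long. CCAAT, a box bound by NF-Y, was in 0 of the 8 stretches and GGGCGG, a GC box bound by Sp1, in 2 of 8, those of RASAL2-AS1 and CCNT2-AS1. The responses beside these stretches differed: RASAL2-AS1 and ZNF566-AS1 fell with their partners, ZNF407-AS1 fell while ZNF407 rose, CCNT2-AS1 fell by 0.40 and URB1-AS1 rose by 0.27 with partners that did not pass. URB1-AS1 had adjusted p of 0.061 in limma without wt-progerin replicate 1 and without replicate 3.

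Promoter windows of 250 bases before to 50 after the start were held for 222 antisense genes and 238 partners. Motifs were sought only in the 250 bases before the start. CCAAT was in 32.9% of antisense windows, 30.7% of partner windows and 33.0% of 27305 windows of all genes. GGGCGG was in 40.5%, 61.3% and 42.2%, TTTGAA in 6.76%, 11.3% and 13.6%, GGCGGGAA in 2.25%, 3.78% and 2.77% and TATAAA in 7.66%, 7.98% and 11.2%, each sought on both strands. GGCGGGAA contains no other of these motifs. A match is a description of the letters only.

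The pair of TMPO and TMPO-AS1 fell together. TMPO encodes lamina-associated polypeptide 2, a family of nuclear proteins that bind lamins and chromatin, and its antisense gene starts within 1 kb of it. TMPO-AS1 read 8.14, 8.12 and 8.07 in wt-progerin and 7.48, 7.49 and 7.36 in S22A-progerin. The groups are far apart, with a difference of -0.67 (SE 0.0581, adjusted p = 0.000297). TMPO itself read 9.26, 9.31 and 9.28 against 8.29, 8.37 and 8.48, a difference of -0.90 (SE 0.0636, adjusted p = 0.000126). The antisense gene fell less by 0.23, with a 95% interval of 0.0124 to 0.45, and this gap did not pass (adjusted p = 0.103 over all pairs). PRC1, described with the pairs that moved apart, encodes a protein of dividing cells. The 250 bases before the starts of TMPO and PRC1 are shown as picked examples, because motifs of promoters active late in the cell cycle are well described. Capitals mark CCAAT boxes, the motif TTTGAA and the E2F-like motif GGCGGGAA on either strand.
TMPO: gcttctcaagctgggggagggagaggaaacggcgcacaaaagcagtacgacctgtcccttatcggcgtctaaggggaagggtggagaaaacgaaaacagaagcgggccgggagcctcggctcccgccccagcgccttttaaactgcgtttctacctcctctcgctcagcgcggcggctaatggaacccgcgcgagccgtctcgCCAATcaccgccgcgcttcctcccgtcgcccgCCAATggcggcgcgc
PRC1: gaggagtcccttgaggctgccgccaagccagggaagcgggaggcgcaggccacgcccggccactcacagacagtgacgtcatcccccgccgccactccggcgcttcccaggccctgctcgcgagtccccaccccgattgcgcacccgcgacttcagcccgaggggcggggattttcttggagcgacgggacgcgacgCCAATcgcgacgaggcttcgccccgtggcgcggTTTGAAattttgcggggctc
They lie at chr12:98515323-98515572 (plus strand) and chr15:90994536-90994785 (minus strand) of GRCh38.p14. TMPO's stretch held 2 CCAAT, and PRC1's held 1 CCAAT and 1 TTTGAA, the core of the cell cycle homology region. Neither held GGCGGGAA. Among partners that fell, 38.6% held CCAAT, 11.4% TTTGAA and 4.55% GGCGGGAA. Among those that rose the shares were 33.3%, 6.67% and 6.67%. Over the 27305 windows of all genes they were 33%, 13.6% and 2.77%. The part of these motifs in the falls was not tested.

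**Figure D4:**
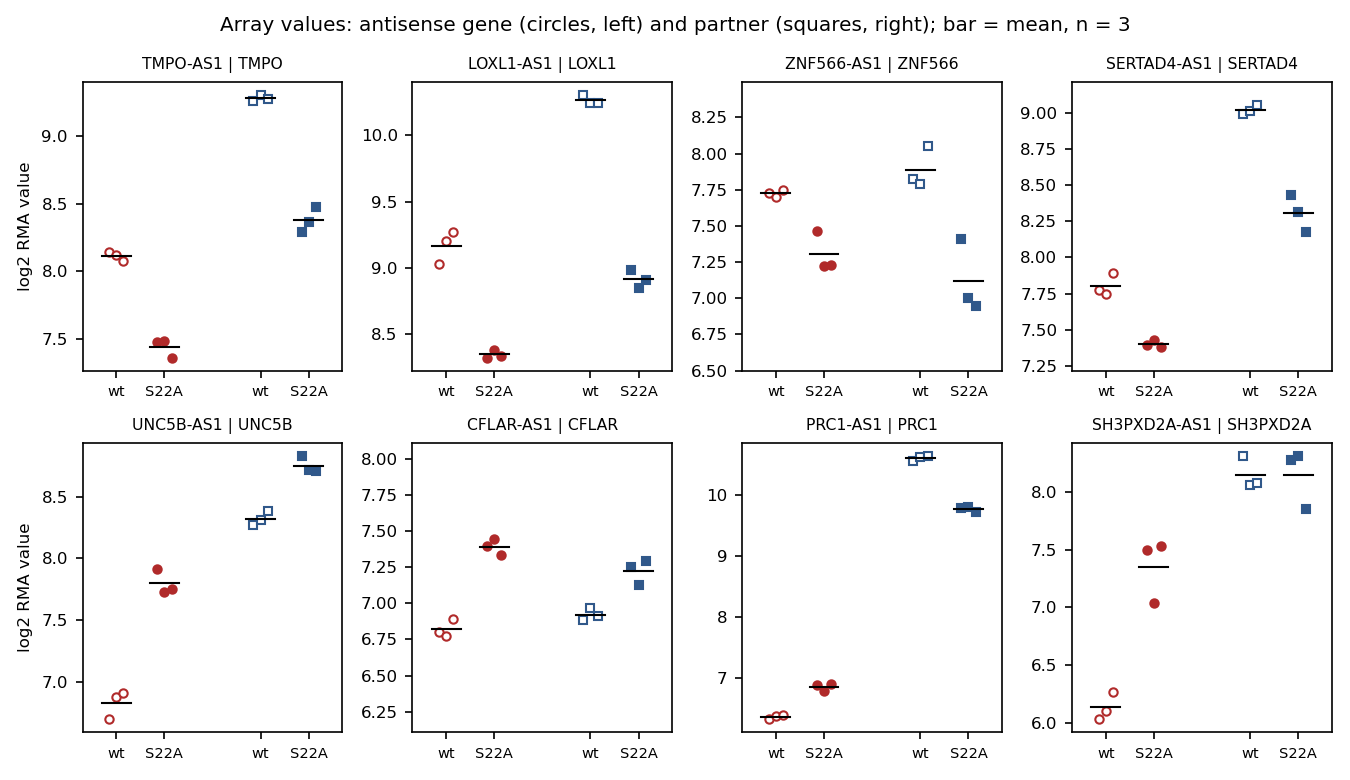
Log2 RMA values (y axis, its own range in each panel) of 8 pairs on the 6 arrays, antisense gene as red circles on the left and partner as blue squares on the right, open for wt-progerin and filled for S22A-progerin, with bars at the means of 3 arrays. Both genes are lower in S22A-progerin for TMPO, LOXL1, ZNF566 and SERTAD4 and higher for UNC5B and CFLAR, PRC1-AS1 rises from 6.33 to 6.41 up to 6.79 to 6.91 while PRC1 falls, and SH3PXD2A-AS1 rises while SH3PXD2A overlaps.

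PCNA-AS1, which starts inside the gene of the replication clamp PCNA, read 8.23, 8.25 and 8.30 against 7.96, 8.02 and 7.87. It fell by 0.31 on the log2 scale (adjusted p = 0.00918). PCNA fell by 0.24 on the log2 scale with an adjusted p of 0.0495, close to the threshold, and its call was lost in 10 of 15 other settings. Each array left out in turn was enough for that, with adjusted p of 0.0618 to 0.149. MCM3AP-AS1, whose partner encodes the messenger RNA export factor GANP, fell by 0.24 on the log2 scale and MCM3AP by 0.32, and one of the pair did not pass in 7 of the 15 settings. MCM3AP-AS1 had adjusted p of 0.0634 to 0.0922 without any 1 of 5 arrays.

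The largest falls in both genes were at JAKMIP2 and LOXL1. JAKMIP2 encodes a coiled-coil protein of Janus kinases and microtubules. JAKMIP2-AS1 read 6.84, 6.68 and 6.96 in wt-progerin and 6.26, 6.23 and 5.52 in S22A-progerin, with replicate 3 lowest. The antisense difference was -0.82 (SE 0.198, adjusted p = 0.0215), and JAKMIP2 went from 8.29, 8.29 and 8.39 to 6.94, 6.67 and 6.72, a difference of -1.54 (adjusted p = 4.57e-05). LOXL1 encodes a lysyl oxidase that cross-links elastin in the matrix, and LOXL1-AS1 starts inside it. LOXL1-AS1 read 9.03, 9.20 and 9.27 against 8.32, 8.38 and 8.34, a 1.77-fold fall (SE 0.0735, adjusted p = 0.00034). LOXL1 read 10.31, 10.24 and 10.24 against 8.99, 8.85 and 8.91, a 2.55-fold fall (adjusted p = 2.01e-05). In both pairs the partner fell further than the antisense gene: the gap was 0.72 for JAKMIP2 (adjusted p = 0.0104) and 0.53 for LOXL1 (adjusted p = 0.00429). A second, dimmer probe set of LOXL1-AS1 gave -1.13.

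ZNF566, ZNF503 and ZNF436 encode zinc finger proteins. ZNF566-AS1 read 7.73, 7.70 and 7.75 against 7.47, 7.22 and 7.23 (difference -0.42, adjusted p = 0.00766), and ZNF566 fell by 0.77 on the log2 scale. Both genes had S22A-progerin replicate 1 above the other 2 replicates. ZNF503-AS1 fell by 0.25 on the log2 scale (adjusted p = 0.0451) and ZNF503, a developmental repressor, by 0.70. This antisense value rests on the brightest of 3 probe sets, and the dimmer ones gave -0.78 and -1.08. Without any 1 of 5 arrays its adjusted p was 0.092 to 0.127. ZNF436-AS1 rose by 0.34 and ZNF436 by 0.24, a pair in which ZNF436 had adjusted p of 0.0587 to 0.0977 without any 1 of 5 arrays.

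The other same-direction falls were at SERTAD4, RASAL2, STARD7 and PTOV1. SERTAD4-AS1 read 7.77, 7.75 and 7.89 against 7.40, 7.43 and 7.38, a fall of 0.40 (adjusted p = 0.00276), and SERTAD4 fell by 0.71 on the log2 scale. RASAL2-AS1 fell by 0.27 on the log2 scale and RASAL2, a Ras GTPase-activating protein, by 0.32, with a gap of 0.05 and a 95% interval of -0.132 to 0.236. RASAL2-AS1 had an adjusted p of 0.0555 without wt-progerin replicate 1. STARD7-AS1 fell by 0.32 on the log2 scale and STARD7, a phosphatidylcholine carrier of mitochondria, by 0.17. STARD7-AS1 had adjusted p of 0.0964 to 0.132 without wt-progerin replicate 1 or 2 or S22A-progerin replicate 2 or 3, and 0.0633 with array weights. PTOV1-AS1 fell by 0.28 on the log2 scale and PTOV1 by 0.19. PTOV1 and STARD7 each lost the call without any 1 of the 6 arrays, with adjusted p of 0.0585 to 0.146 for PTOV1 and 0.0659 to 0.130 for STARD7. Among these 4 pairs only SERTAD4 kept both calls in all 15 settings.

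Among rises in both genes, UNC5B-AS1 was the largest. UNC5B is a netrin receptor that can signal cell death when unbound. UNC5B-AS1 read 6.69, 6.87 and 6.90 in wt-progerin and 7.92, 7.73 and 7.75 in S22A-progerin, a 1.97-fold rise (SE 0.0813, adjusted p = 0.000257). UNC5B read 8.27, 8.31 and 8.38 against 8.83, 8.72 and 8.71, a 1.35-fold rise (adjusted p = 0.00248), so the antisense gene rose further, by 0.54 (adjusted p = 0.00111). CFLAR encodes c-FLIP, the inhibitor of caspase-8, and CFLAR-AS1 starts inside it. CFLAR-AS1 read 6.80, 6.77 and 6.89 against 7.39, 7.44 and 7.33, a rise of 0.57 (adjusted p = 0.000678), and CFLAR rose by 0.30 (adjusted p = 0.0121). The gap of 0.27 in that pair had an adjusted p of 0.0635. TMEM147-AS1 rose by 0.25 and TMEM147, which encodes a membrane protein of the endoplasmic reticulum, by 0.22, and TMEM147-AS1 had adjusted p of 0.0682 to 0.131 without any 1 of 5 arrays.

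Of the 6 pairs that moved apart, PRC1 had the widest gap. PRC1 encodes the protein that cross-links antiparallel microtubules of the central spindle, which is needed for cytokinesis, and its antisense gene starts inside it. PRC1-AS1 read 6.33, 6.38 and 6.41 in wt-progerin and 6.90, 6.79 and 6.91 in S22A-progerin, a 1.41-fold rise (SE 0.0578, adjusted p = 0.00109). PRC1 read 10.56, 10.63 and 10.64 against 9.79, 9.80 and 9.73, a 1.78-fold fall (SE 0.054, adjusted p = 9.41e-05). No array of one group overlapped the other in either gene. The gap was 1.33, with a 95% interval of 1.14 to 1.51 and an adjusted p of 1.5e-05. It kept both calls under all 15 other settings that tested them, the sole opposite-direction pair to do so.

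STXBP5-AS1, divergent from STXBP5 (tomosyn, a protein that binds syntaxins and limits secretion), rose by 0.77, from 4.56, 4.63 and 4.66 to 5.32, 5.46 and 5.35 (adjusted p = 0.000211). Its 2 dimmer probe sets gave 1.17 and 1.12. STXBP5 fell by 0.28 on the log2 scale with an adjusted p of 0.0438, and was lost without each of wt-progerin replicates 1, 2 and 3 and S22A-progerin replicates 1 and 2, at 0.0638 to 0.131. HECTD2-AS1 rose by 0.54 (adjusted p = 0.0142), from 5.74, 5.70 and 5.56 to 6.45, 6.16 and 6.01. HECTD2, a HECT-type ubiquitin ligase, fell by 0.35 on the log2 scale. EPB41L4A-AS1, a host of small nucleolar RNA, rose by 0.32 (adjusted p = 0.0161), and EPB41L4A, of the band 4.1 family of membrane-cytoskeleton proteins, fell by 0.37 on the log2 scale. EPB41L4A-AS1 had 0.0516 without S22A-progerin replicate 1, and HECTD2-AS1 0.0527 without wt-progerin replicate 3. RAET1E-AS1 fell by 0.24 on the log2 scale against a rise of 0.55 of RAET1E, a ligand of the natural killer receptor NKG2D. ZNF407-AS1 fell by 0.24 on the log2 scale against a rise of 0.28 of ZNF407. In these last 2 pairs a call was lost in 8 and 11 of 15 settings. Without any 1 of 5 arrays RAET1E-AS1 had adjusted p of 0.0610 to 0.0875, and ZNF407-AS1 of 0.0698 to 0.116.

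In 30 pairs the antisense gene passed and the partner did not, 16 with rises and 14 with falls. SH3PXD2A-AS1 had the largest difference of any antisense gene. Its partner encodes TKS5, a scaffold of the invasive structures called invadopodia. SH3PXD2A-AS1 read 6.03, 6.11 and 6.27 in wt-progerin and 7.49, 7.04 and 7.53 in S22A-progerin, a 2.33-fold rise (SE 0.139, adjusted p = 0.000963). SH3PXD2A read 8.31, 8.06 and 8.08 against 8.27, 8.31 and 7.85, and these overlapped. The gap of 1.22 had a 95% interval of 0.74 to 1.70 and an adjusted p of 0.00248.

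LCT-AS1, beside the gene of lactase, rose by 0.79 and was at 4.41 to 4.86 against 5.28 to 5.52 (adjusted p = 0.00412). EPHA1-AS1, beside an ephrin receptor, rose by 0.71 (adjusted p = 0.0133), and SYNPR-AS1, beside the gene of the synaptic vesicle protein synaptoporin, by 0.47 (adjusted p = 0.00357). ALOX12-AS1, beside a lipoxygenase gene, rose by 0.37, and MTUS2-AS1, beside a gene of a microtubule-associated protein, by 0.33. The gap to the partner passed in all 5 of these pairs, with values of 0.37 to 0.67. So a rise in the antisense gene beyond the partner's own change was found for each of them.

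GAS5-AS1 read 6.04, 5.95 and 6.35 in wt-progerin and 5.69, 5.29 and 5.32 in S22A-progerin, a 1.60-fold fall (SE 0.141, adjusted p = 0.0122). GAS5 is itself a noncoding RNA, a host of small nucleolar RNAs that accumulates in growth arrest, and read 9.95, 10.02 and 9.97 against 10.12, 10.26 and 10.11, a difference of 0.19 that did not pass (adjusted p = 0.0644). The groups of GAS5 did not overlap, and the gap of -0.87 passed (adjusted p = 0.0026). MSC-AS1, beside the gene of the repressor musculin, fell by 0.46 on the log2 scale, LIMD1-AS1, beside a LIM-domain scaffold, by 0.45, and CCNT2-AS1, beside cyclin T2 of the elongation factor P-TEFb, by 0.40. JMJD1C-AS1, beside a Jumonji-domain gene, fell by 0.37, LRP4-AS1, beside the agrin receptor gene, by 0.36, and ASB16-AS1 by 0.33. The gap passed for MSC, CCNT2, JMJD1C and LRP4 (-0.31 to -0.52), and did not pass for LIMD1 (adjusted p = 0.161) or ASB16 (adjusted p = 0.0903).

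In 69 pairs the partner alone passed, 33 with rises and 36 with falls. The widest gap of all was at EGFR, the epidermal growth factor receptor. EGFR read 7.79, 7.82 and 7.86 against 9.24, 9.21 and 9.43, a 2.77-fold rise (adjusted p = 3.51e-05). EGFR-AS1 read 4.85, 5.09 and 5.24 against 5.03, 4.92 and 5.01, with overlapping groups and a difference of -0.08 (95% interval -0.316 to 0.161). ARRDC3, an arrestin-domain protein that promotes receptor degradation, rose by 1.16 (10.17, 10.28 and 10.18 against 11.37, 11.36 and 11.38), and ARRDC3-AS1, which starts inside it, differed by -0.08. HAS2, the hyaluronan synthase, rose by 1.17, while HAS2-AS1 differed by 0.33 and did not pass (adjusted p = 0.0742), though its groups, 5.90 to 6.29 and 6.32 to 6.54, did not overlap.

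Partners that fell beside an antisense gene that did not pass include LDLRAD4, an inhibitor of TGF-beta signalling, ADD3, a gene of the adducins that cap actin at the membrane skeleton, NREP and SPAG5. Their falls were of 0.92, 0.86, 0.98 and 0.91 on the log2 scale. SPAG5 encodes astrin, a protein of the mitotic spindle. The antisense genes differed by 0.11, 0.14, -0.02 and -0.05, and the gaps of 1.02, 1.01, 0.95 and 0.86 all passed. LEMD1 rose by 0.88, and LEMD1-AS1 differed by -0.13. Where such an antisense gene lies low on the array, as NREP-AS1 does at 3.66 to 3.88, a change in it would also be compressed.

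**Figure D5:**
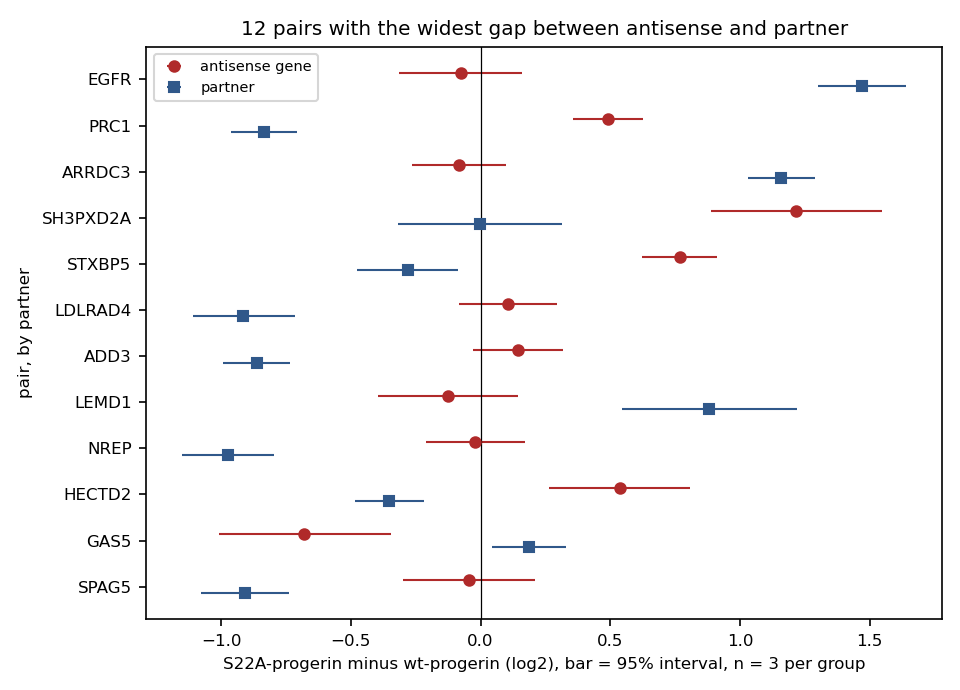
Differences of the antisense gene (red circles) and the partner (blue squares) in log2 units, S22A-progerin minus wt-progerin (x axis), with 95% intervals from limma and n = 3 arrays per group, for the 12 pairs with the widest gap between the 2 (y axis). In 7 of the 12 the antisense interval spans 0 while that of the partner does not, as at EGFR, with -0.08 against 1.47.

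Of 30 antisense genes listed as well studied in tumour cells or development, 14 were among the 287, and 2 of these passed, PCNA-AS1 and FOXD2-AS1, beside 25.4% of all genes and 17.8% of the 287. FOXD2-AS1 read 9.28, 9.34 and 9.40 against 9.18, 9.09 and 9.07 and fell by 0.23 on the log2 scale (adjusted p = 0.0268), whereas FOXD2, a forkhead factor gene, differed by -0.14 and did not pass. FOXD2-AS1 lost its call without wt-progerin replicate 2 or 3 or S22A-progerin replicate 2 or 3, at adjusted p of 0.0611 to 0.100. PXN-AS1 differed by -0.16 (adjusted p = 0.0603) beside a rise of 0.31 in PXN, the focal adhesion gene paxillin, and the gap of -0.47 passed (adjusted p = 0.00196). DLX6-AS1 differed by -0.33 (adjusted p = 0.0705), with a gap of -0.43 to DLX6 that passed (adjusted p = 0.0117). GAS6-AS1 differed by -0.17 (adjusted p = 0.0615), and GAS6, a ligand of the TAM receptors, fell by 0.61 on the log2 scale. GNAS-AS1, the antisense RNA of an imprinted locus, differed by 0.01 while GNAS fell by 0.18 on the log2 scale. ZEB1-AS1, ZEB2-AS1, HAND2-AS1, GATA3-AS1, LEF1-AS1 and VPS9D1-AS1 did not pass, with differences of -0.19 to 0.11, nor did their partners.

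The RNA exosome and its adaptors, which break down many nuclear antisense and upstream transcripts, were taken as the pathway of their turnover. The list held 24 symbols, among them MTREX and its earlier name SKIV2L2. Of these 17 were measured, of which 7 fell, 2 rose and 8 did not pass, and their median difference was -0.10. These genes lie high on the array (median level 9.87), where 39.8% of all genes passed in either direction. The falls were in the core subunit genes EXOSC3 (-0.33), EXOSC6 (-0.27), EXOSC8 (-0.51) and EXOSC9 (-0.42), the nuclease EXOSC10 (-0.24), the helicase MTREX (-0.38) and the adaptor ZC3H18 (-0.25). EXOSC8 read 9.45, 9.40 and 9.55 against 9.08, 9.06 and 8.72, with no overlap. EXOSC4 rose by 0.33 and EXOSC5 by 0.20, the latter with an adjusted p of 0.0468, and without any 1 of the 6 arrays only 1 of them passed. The nuclease DIS3 differed by 0.12 and XRN2 by -0.06.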

How the data were processed

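Values for 53617 probe sets on 6 arrays were deposited on the log2 scale. The submitters' processing notes name Affymetrix Expression Console and RMA, with versions not given in the sources used here. RMA corrects background, quantile normalizes and summarises probes. The platform annotation gave 16098 probe sets 1 gene symbol and left 37519 unnamed here. Each gene was read from its probe set with the highest mean. Groups came from the labels.

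Genes were fitted with limma 3.58.1 (R 4.3.3; lmFit, eBayes, two-sided, no covariate), with p-values adjusted by Benjamini-Hochberg over 14884 genes. Single-gene adjusted p-values are from this fit. Pairs were fitted on antisense minus partner per array, adjusted over 1626 pairs. A test on simulated data covered 14884 genes: at a true difference of 0.3, 0.6, 1 and 2 it recovered 14, 29, 42 and 49 of 50 changed genes, and 7 of 141 calls were false. Far fewer genes were changed there than the 3777 that passed in the real data. The cut on p set by the adjustment therefore differs, and these recoveries do not carry over directly. The number of arrays limits the precision.

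The antisense genes and all lists were chosen with earlier results of these data known. Named were the 12 largest rises and falls, pairs in which both passed, the 12 widest gaps that passed, the listed well-studied genes and the extremes of level. HAS2-AS1 is among the well-studied genes. Strands, neighbours and sequences came from RefSeq (GRCh38.p14). Its gene list held all 287 antisense genes, and strands came with the promoter windows, held for 222 of them. No build is named for the array annotation. Alternatives covered normalization, dim genes, probe sets, variance priors, weights, a block for the replicate number, each array left out and a threshold of 0.01.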

Additional observations from a re-analysis of the deposited data

How the results depend on the processing

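The count over all genes fell from 3777 to 2296 when every probe set on the array was tested and to 2078 at a threshold of 0.01. Antisense genes higher were 14 without dim genes (those below the median level), 11 with every probe set and 7 at 0.01, and lower were 16, 12 and 9. The dimmer genes left out took antisense genes with them, and their median difference became -0.0457. Partners higher were 22 with every probe set and 19 at 0.01, and lower 32 at 0.01. Pairs with both genes in the same direction were 6 with every probe set and 5 at 0.01. Those in opposite directions were 1 without dim genes, 2 with every probe set and 1 at 0.01. Gaps that passed numbered 22 without dim genes and 42 at 0.01, and were not refitted with every probe set. Exosome genes higher were 1 with arrays centred, with every probe set and at 0.01, and lower 3 at 0.01. Of the double-stranded RNA list, 1 was higher without dim genes, and 2 were lower with arrays centred, without dim genes and with a trended robust prior. With probe sets averaged the gap of ZNF503 turned to -0.00546. Other causes were not tested.

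With each array left out in turn, antisense genes higher ranged from 16 to 23, lower from 17 to 23, same-direction pairs from 7 to 12 and opposite-direction pairs from 2 to 5. Exosome genes higher stayed at 1.

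Same-numbered replicates had correlations of deviations of -0.0195, -0.0549 and -0.00558, and differently numbered ones of -0.0263 to 0.0491. No shared deviation of same-numbered replicates was seen. With 3 arrays per group this cannot decide whether they were handled together. With the replicate number as a block, 38 of the 51 antisense calls remained, opposite-direction pairs were 3 and exosome genes higher 1.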

Other observations

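Other noncoding genes named by position were counted in the same limma fit, and those named here were picked after their values were seen. Over all genes 25.4% passed, and 10.2% of those in the lowest of 3 bins of level. Of 144 -AS1 genes whose partner is not named on the array, 9 rose and 10 fell (13.2%). DLGAP1-AS1 had the largest rise, from 9.004, 9.011 and 8.976 to 10.388, 10.318 and 10.269, a 2.51-fold change (adjusted p = 1.67e-05) that exceeds that of any of the 287 with a partner. FAS-AS1 rose by 0.63, AFF1-AS1 by 0.66, and TGFB2-AS1 fell by 0.54 on the log2 scale. Of 99 divergent transcript genes (-DT), 9 rose and 9 fell (18.2%). GAS6-DT fell by 1.01 on the log2 scale (adjusted p = 5e-05), beside the falls of GAS6, -0.61, and the difference of GAS6-AS1, -0.17, and NUP50-DT rose by 0.61. Of 53 genes ending in -AS, -AS2 or -AS3, 2 rose and 3 fell (9.43%), among them BACE1-AS, the antisense RNA of the beta-secretase gene, which fell by 0.50 on the log2 scale. Of 27 intronic transcript genes 1 fell, and of 5 overlapping transcript genes 0 passed in limma.

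Paired sense and antisense RNA can form double strands. A list of genes that process or sense double-stranded RNA held 24 symbols, among them RIGI and its earlier name DDX58. Of these 9 were measured, of which 2 rose, 1 fell and 6 did not pass. These 3 of 9 (33.3%) stand beside 25.4% of all genes and 39.8% of those in the highest bin of level, so the share is near the background. RIGI, a cytosolic sensor, read 8.06, 8.17 and 8.18 in wt-progerin and 9.47, 9.36 and 9.61 in S22A-progerin, a 2.54-fold rise (adjusted p = 5.78e-05). TLR3, the endosomal sensor, rose by 0.60 (adjusted p = 0.00232), and the helicase DHX9 fell by 0.28 on the log2 scale. EIF2AK2, the kinase PKR, differed by 0.05, and the sensor IFIH1 by 0.12.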
